A study of Mus musculus with 2 samples.

Results

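The genes described here encode 10 receptors and co-receptors for Wnt proteins, the Frizzled genes Fzd1, Fzd2, Fzd4, Fzd6, Fzd7 and Fzd8, the R-spondin receptor gene Lgr4, the co-receptor gene Lrp6, and the receptor tyrosine kinase-like genes Ror1 and Ror2. They were chosen by name as Wnt receptors, with earlier results of these data known. All 10 were measured, each by 1 probe set, among 19938 genes on the array. The cells came from the dorsal dermis of newborn (P0) C57BL/6 mice. After 24 h in medium with serum they received either control siRNA or siRNAs specific for β-catenin (gene Ctnnb1), used at 10 nM and left for 48 h. An Affymetrix whole-transcript array was then hybridised from 300 ng of total RNA. Each group was 1 array, 2 in all, so every difference below is one subtraction with no replicate error, and neither a test nor an interval could be given. Both cultures were transfected, no untransfected culture was used here, and the labels do not say how many pups or cultures stood behind an array.

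Wnt proteins bind the cysteine-rich domain of a Frizzled, a receptor with a bundle of membrane-spanning helices, and bring it together with Lrp5 or Lrp6. This complex recruits Dishevelled and Axin, halts the breakdown of β-catenin and lets it act with TCF/LEF factors in the nucleus. R-spondins, bound by Lgr4, Lgr5 or Lgr6, hold back the ubiquitin ligases Znrf3 and Rnf43, which otherwise clear Frizzleds and Lrp6 from the cell surface. Ror1 and Ror2 bind Wnt5a and signal without β-catenin, in cell polarity and migration. In skin, Wnt signalling in the dermis takes part in fibroblast identity and hair follicle formation.

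The deposited values are log2 signals processed with robust multi-array average (RMA), which brings the distributions of the arrays close together, so each difference is relative to the other genes. Over all probe sets the median was 4.68 in the control and 4.71 after β-catenin siRNA. The target transcript, Ctnnb1, read 10.48 in the control and 9.34 after β-catenin siRNA (log2), so 45.2% of its control signal was left. Differences of at least 1.5-fold (0.585 on the log2 scale) were counted. Where a level filter is named, the higher of a gene's 2 values had to reach 5.13, the median of all gene means, which 10197 genes did. All 10 fibroblast markers passed that filter, with control values from 6.60 to 12.77 (median 10.30), and so did 8 of 13 keratinocyte, 6 of 10 smooth muscle and pericyte, 3 of 8 measured melanocyte and Schwann cell, 2 of 10 endothelial and 1 of 10 macrophage markers.

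The receptor genes went both ways after β-catenin siRNA. Fzd4 and Lgr4 were at least 1.5-fold higher, Lrp6 and Fzd8 were higher by less, and Fzd1, Ror1, Ror2, Fzd6, Fzd2 and Fzd7 were lower, none of them by 1.5-fold. Of the 10 receptor genes, 2 were thus at least 1.5-fold higher, beside 2.23% of all measured genes, and 0 were at least 1.5-fold lower, beside 2.35% of all measured genes. The 10 were chosen with earlier results of these data known, so these counts and shares serve as description only. Among genes past the level filter the shares were 2.76% higher and 1.84% lower. All 10 receptor genes passed that filter, but Fzd4 did so only through the β-catenin siRNA array, where its value was higher than in the control. The median difference of the 10 was -0.09, against -0.02 over all measured genes, with a range from -0.58 to 1.03. To give a scale, the robust SD of the difference among the 500 genes closest in level to each receptor gene lay between 0.17 and 0.24. Noise of the arrays, the cultures' own differences and siRNA effects all enter it.

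**Figure D1:**
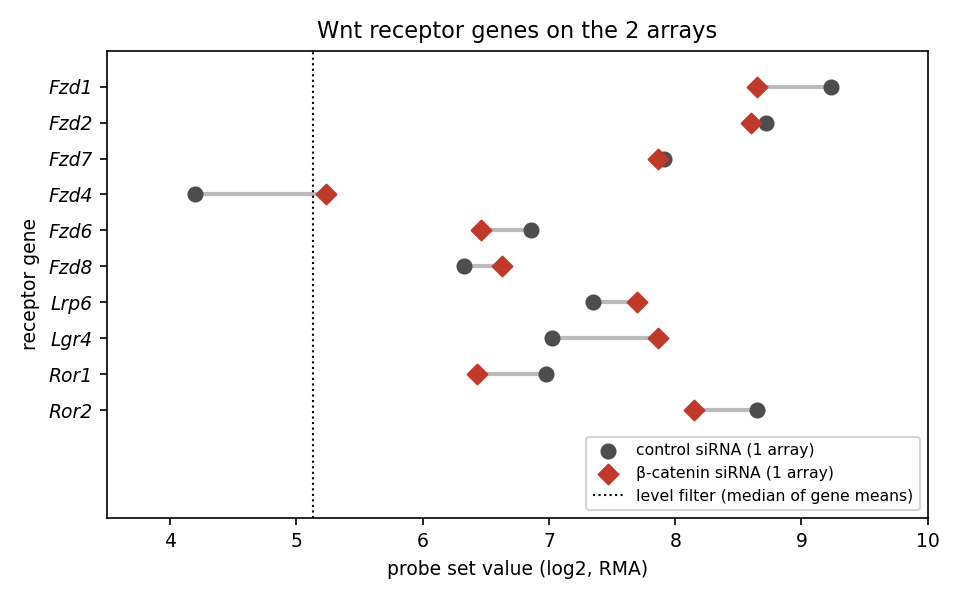
Log2 RMA values (x axis) of the 10 receptor genes (y axis) on the control siRNA array (grey circles) and the β-catenin siRNA array (red diamonds), 1 array each, with the level filter of 5.13 as a dotted line. Fzd4 lies under the filter on the control array (4.20) and just above it on the other (5.23), Lgr4 moves from 7.02 to 7.86, and Fzd1 keeps the highest value on both arrays.

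Fzd1, Fzd2 and Fzd7 form a subfamily of closely related Frizzleds. Fzd1 had log2 values of 9.23 in the control and 8.65 after β-catenin siRNA, which is a difference of -0.58 and leaves 67.0% of its signal. Fzd2 read 8.72 and 8.60, 92.1% of the control, and Fzd7 read 7.91 and 7.86, 96.3% of the control. All 3 were lower, but the difference of Fzd1 was 3.22 times the robust SD of genes of similar level, whereas those of Fzd2 and Fzd7 were under 1 such SD. Fzd1 missed the 1.5-fold size narrowly, with a difference of -0.578. Probe sets of close relatives can share signal, which was not tested.

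Fzd4, a receptor for norrin as well as Wnts and known for its role in retinal vessels, had the largest difference of the 10. It read 4.20 in the control and 5.23 after β-catenin siRNA on the log2 scale, a difference of 1.03 (2.04-fold). It was the only receptor gene at least 2-fold higher, and its difference ranked 112 of all 19938 measured genes from the most positive. Among genes past the level filter 0.912% were at least 2-fold higher, but Fzd4 passed that filter only through the β-catenin siRNA array. The control value was 0.94 below the level filter and at percentile 38.1 of all genes on that array, and the other value exceeded the filter by 0.09. Detection calls were not used here, so whether the control value stood above background is not known. RMA leaves some background in dim values. Taking the 5th percentile of each array as that background and subtracting it on the linear scale gave a difference of 1.21 (2.31-fold). The size thus depends on how dim signal is treated. The 5th percentiles were close, 1.86 in the control and 1.79 after β-catenin siRNA (log2). Subtracting them could not reverse the direction, so that it was kept says nothing about it.

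Fzd6 and Fzd8 were measured at middle signal. Fzd6, which takes part in planar cell polarity and hair patterning in skin, read 6.86 on the control array and 6.46 after β-catenin siRNA, 75.9% of the control. Fzd8 read 6.33 and 6.63, 1.23-fold higher. Their differences of -0.40 and 0.30 were 1.88 and 1.37 times the robust SD of genes of similar level in size, and both lay inside the 1.5-fold limits.

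The co-receptor gene Lrp6 read 7.35 on the control array and 7.70 after β-catenin siRNA, a difference of 0.35 (1.27-fold). Its paralog Lrp5 differed by 0.28. Lgr4 read 7.02 and 7.86, a difference of 0.84 (1.79-fold), and both of its values were well above the level filter. That difference was 3.66 times the robust SD of genes of similar level and ranked 194 of 19938 from the most positive. Lgr4 therefore had the largest difference among the 9 receptor genes with both values past the filter. The other R-spondin receptors did not share its direction: Lgr5 read 8.87 and 8.51 (difference -0.37), and Lgr6, with dim values of 5.30 and 4.86, differed by -0.44. The gap between the differences of Lgr4 and Lgr5 was 1.21 on the log2 scale.

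Both Ror genes were lower by similar amounts. Ror1 read 6.98 on the control array and 6.43 after β-catenin siRNA, 68.5% of the control. Ror2 read 8.65 and 8.15, 70.7% of the control. The differences, -0.55 and -0.50, were 2.59 and 2.77 times the robust SD of genes of similar level in size, and lay 613 and 760 places from the most negative of 19938. Ptk7 and Ryk, which encode kinase-like Wnt receptors without kinase activity, were lower too. Ptk7 differed by -0.47 from a control value of 10.34, and Ryk by -0.16 from 10.14. These 4 kinase-type receptor genes were grouped after their values were seen, and 52.5% of all measured genes were lower by any amount. Wnt5a, the ligand of the Ror receptors, read 10.26 and 9.73, a difference of -0.53.

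**Figure D2:**
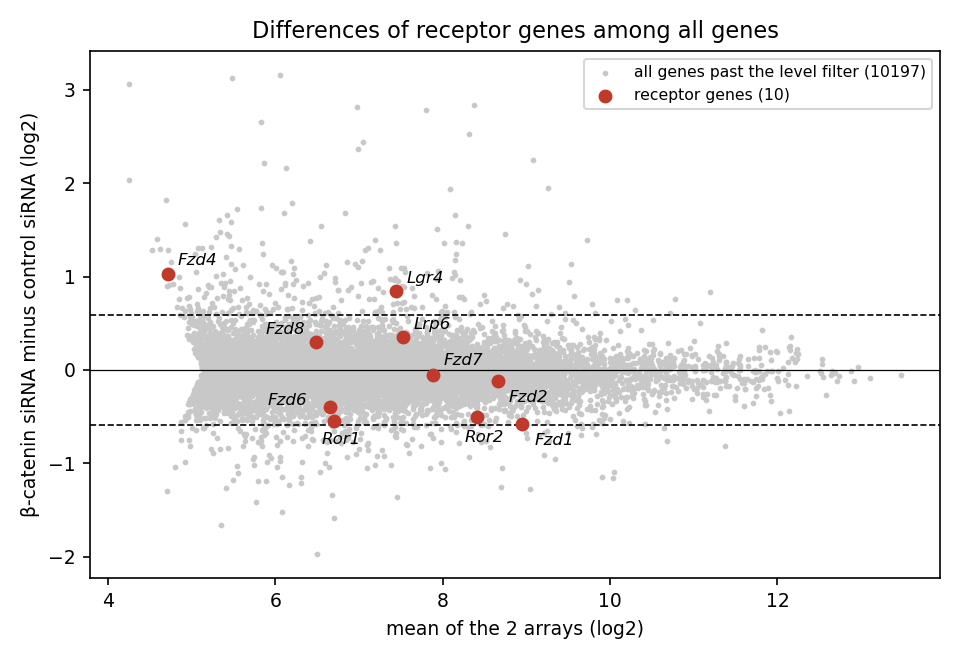
Difference between β-catenin siRNA and control siRNA (y axis, log2) against the mean of both arrays (x axis, log2) for the 10197 genes past the level filter (grey) and the 10 receptor genes (red, named), with dashed lines at 1.5-fold. Fzd4 (1.03) and Lgr4 (0.84) lie above the upper line, and Fzd1 (-0.58), Ror1 (-0.55) and Ror2 (-0.50) lie close to the lower one.

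Ordered by signal, Fzd1, Fzd2 and Ror2 came first on both arrays, followed by Fzd7, and Fzd4 came last. Probes differ in how strongly they bind, so this is an order of array signal and not of transcript number. In the control the values ran from 9.23 for Fzd1 to 4.20 for Fzd4, a range of 5.04, and after β-catenin siRNA from 8.65 to 5.23, a range of 3.43. Of the 10 genes, 6 kept their place. Lgr4 moved from place 6 to 5, past Lrp6, to 0.0013 below Fzd7, and Ror1 moved from place 7 to 9. The lead of Fzd1 over Fzd2 was 0.52 on the control array and 0.06 on the other. Without replicates no gap between neighbours could be set against a spread, and the closest pairs in the control were Lgr4 and Ror1 (0.04) and Fzd2 and Ror2 (0.06).

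Promoter windows from RefSeq (GRCm38.p6), 250 bases before to 50 after the start of transcription, were found for 6 of the 10 genes: Fzd1, Fzd4, Fzd7, Lgr4, Ror1 and Ror2. The 250 bases before the start are shown for the pair with the largest positive differences, Fzd4 and Lgr4, for Fzd1, with the largest negative one, and for Fzd7, which holds the only motif match. They lie at chr7:89404116-89404365 (plus strand), chr2:109917397-109917646 (plus strand), chr5:4758217-4758466 (minus strand) and chr1:59481897-59482146 (plus strand), and are written 5′ to 3′ in the direction of transcription, with the match in capitals.
Fzd4: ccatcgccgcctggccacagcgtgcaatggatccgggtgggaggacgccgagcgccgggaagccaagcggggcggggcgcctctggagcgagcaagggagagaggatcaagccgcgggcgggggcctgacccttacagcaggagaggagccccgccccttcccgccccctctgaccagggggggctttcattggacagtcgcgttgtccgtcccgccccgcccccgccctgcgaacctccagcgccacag
Lgr4: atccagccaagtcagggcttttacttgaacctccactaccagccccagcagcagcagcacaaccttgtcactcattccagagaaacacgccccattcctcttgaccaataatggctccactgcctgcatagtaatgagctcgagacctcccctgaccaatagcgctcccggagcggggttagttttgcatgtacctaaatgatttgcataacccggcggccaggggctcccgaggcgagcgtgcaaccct
Fzd1: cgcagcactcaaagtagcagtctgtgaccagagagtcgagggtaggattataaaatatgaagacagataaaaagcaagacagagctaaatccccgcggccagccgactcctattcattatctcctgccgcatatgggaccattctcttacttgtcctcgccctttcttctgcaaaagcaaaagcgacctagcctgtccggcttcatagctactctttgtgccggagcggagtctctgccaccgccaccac
Fzd7: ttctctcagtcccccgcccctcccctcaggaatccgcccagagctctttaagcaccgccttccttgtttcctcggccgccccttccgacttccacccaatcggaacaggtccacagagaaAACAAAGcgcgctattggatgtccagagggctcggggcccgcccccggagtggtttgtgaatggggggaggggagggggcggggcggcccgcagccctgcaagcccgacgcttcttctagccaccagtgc

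The windows were searched on both strands for the TCF/LEF motifs CTTTGAT and CTTTGTT and for the interferon-stimulated response element, a pair of GAAA blocks separated by 2 bases. Fzd7 alone held a match, CTTTGTT on the minus strand of its window, read as AACAAAG from 130 to 124 bases before the start, and its signal differed by only -0.05. Of all 32851 windows in the table, 9.33% held either TCF/LEF motif and 3.44% the response element, so 1 of 6 and 0 of 6 are counts too small to set beside these shares. The Fzd4 window had a GC content of 72.7% with 32 CpG dinucleotides, and that of Lgr4 58.3% with 18. For the lower genes the GC content was 54.0% (Fzd1), 62.3% (Ror1), 66.7% (Fzd7) and 74.7% (Ror2), against a median of 52.7% over all windows. Genes of both directions thus included GC-rich and less GC-rich windows. Such matches describe letters only, and none of the windows was tested for binding here.

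The other Wnt receptors and co-receptors form a separate group here. They were set apart with earlier results of these data known, so smaller differences than in the 10 receptor genes say little. Of 10 measured genes in that group, Fzd3, Fzd5, Fzd9, Fzd10, Lrp5, Lgr5, Lgr6, Ryk, Ptk7 and Musk, 0 reached 1.5-fold in either direction, 3 were higher and 6 lower by any amount, and the median was -0.15. Ptk7 and Lgr6 had the largest differences among the 7 past the level filter, but Lgr6 passed only through the control array, where its value was higher. Some genes of these groups are named for their role and were chosen after their values were seen. Fzd3, the nearest relative of Fzd6, read 5.79 on both arrays, and Fzd5, that of Fzd8, differed by 0.22. Fzd9 and Fzd10, which are related to Fzd4, had control values of 4.34 and 3.95, under the level filter on both arrays.

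Proteoglycans that hold Wnts at the cell surface included differences in both directions. For the counts here, 2.76% of all genes past the filter were at least 1.5-fold higher and 1.84% lower. Of 9 glypican and syndecan genes past the filter, Gpc3 was 1.75-fold higher, from 8.09 to 8.90, and Gpc1 was 1.53-fold lower, from 8.0 to 7.39. The median of this group was -0.01. Among 10 genes for receptor turnover and membrane modulators past the filter, 0 were 1.5-fold higher and 1 was 1.5-fold lower, Apcdd1, a membrane-bound Wnt inhibitor, at 1.66-fold. Cav1, the caveolin involved in Lrp6 uptake, differed by -0.55, and Tspan12, the tetraspanin partner of Fzd4 in norrin signalling, by 0.30. Znrf3, the ligase held back through Lgr4, read 5.81 and 5.46, a difference of -0.35, and Rnf43 was dim on both arrays (3.64 and 3.45). None of the 4 planar cell polarity genes past the filter reached 1.5-fold, with Prickle2 at 0.31 and Vangl2 at 0.18 the furthest from 0. Of 15 Dishevelled and proximal transducer genes past the filter, 0 reached 1.5-fold, and Dvl3 (-0.38) and Dvl1 (-0.36) differed most.

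Ligands were read beside their receptors. Of 9 Wnt, R-spondin and norrin genes past the filter, 2 reached 1.5-fold upwards and 2 downwards. The shares of all genes past the filter were 2.76% and 1.84%. The median of the ligand genes was -0.34 for these 9, -0.04 over all 24 measured and -0.59 with a filter at the 75th percentile of gene means. Rspo3, a ligand of Lgr4, read 5.43 and 6.35 (1.89-fold higher), and Rspo2, under the filter on both arrays, read 3.69 and 4.49. Wnt2b was lower by 1.93-fold and Wnt9a by 1.57-fold, and Wnt2, which passed only through the β-catenin siRNA array, read 4.57 and 5.16, a difference of 0.59. Wnt3a, which passed only through the control array, read 5.15 and 4.78, a difference of -0.37. Norrin (Ndp), a ligand of Fzd4, read 3.23 and 3.05, under the filter on both arrays. Of 5 secreted antagonist genes past the filter, 3 were at least 1.5-fold higher, beside 2.76% of all genes past the filter. These 3 were Sfrp2 (2.62-fold), Sfrp1 (1.91-fold) and Frzb (1.79-fold), which bind Wnts through a Frizzled-type domain. Frzb passed only through the β-catenin siRNA array (5.02 and 5.86). Under the filter on both arrays, Dkk1 (-0.87) and Notum (-0.66) were at least 1.5-fold lower. The antagonist median was 0.84 past the filter and -0.18 over all 13 measured, so that group had no settled direction.

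Of 12 feedback target genes past the filter, 10 were lower by any amount, beside 52.8% of all genes past the filter. The list also holds Wnt target genes that are not feedback regulators. Among them are Ccnd1 (-0.52), Twist1 (-0.34), Myc (0.13) and Fgf18 (0.03). Of the 12, 4 reached 1.5-fold on the lower side, beside 1.84% of all genes past the filter. On the higher side 0 did. These 4 were Nkd2 (1.91-fold), Nkd1 (1.90-fold), Axin2 (1.68-fold) and Apcdd1, which is counted in 2 groups here, as are Znrf3, Lgr5 and others. The median of the group was -0.36, against -0.09 for the 10 receptor genes.

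**Figure D3:**
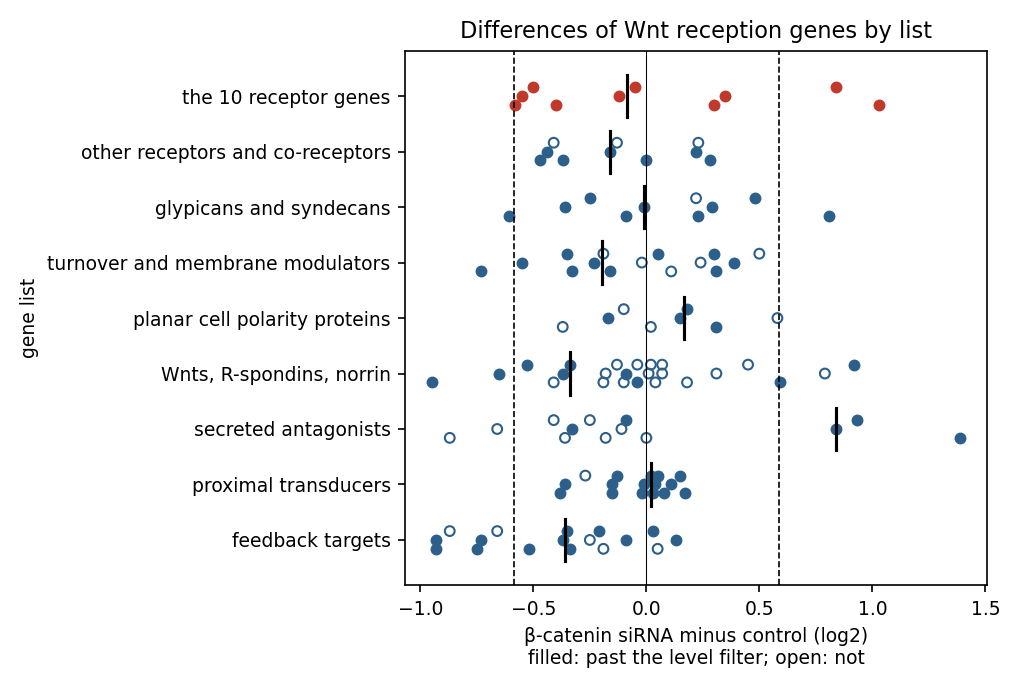
Difference between β-catenin siRNA and control siRNA (x axis, log2) of single genes (points) in each gene list (y axis). Filled points passed the level filter and open points did not, black bars mark the median of filled points, and dashed lines mark 1.5-fold. The 10 receptor genes (red) spread from -0.58 to 1.03 around a median of -0.09, the feedback targets lie mostly below 0 (median -0.36), and proximal transducers stay inside the lines.

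Similar pairs of values were looked for among 68 other genes of these lists past the filter, by Euclidean distance over the 2 log2 values. Closest to Fzd4 were Wnt2 (distance 0.38), Wnt11 (1.0) and Frzb (1.04). Closest to Lgr4 were Lrp5 (0.40), Sfrp2 (0.52) and Dvl2 (0.52). With only 2 arrays such closeness mainly reflects similar signal, and the differences of these genes ranged from -0.04 for Wnt11 to 1.39 for Sfrp2.

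Markers of other cells and of the interferon response differed between the arrays as well, and their part in the receptor differences was not tested. Single markers are named after their values were seen. Of 13 keratinocyte markers, 8 passed the filter. Of the 8, 1 passed only through the β-catenin siRNA array. All 8 had higher values, beside 45.8% of all genes past the filter, and 4 reached 1.5-fold, beside 2.76%. Their median was 0.56, against 0.22 over all 13, of which Krt15, under the filter, was lower (4.30 and 3.75). The log2 of their summed linear signal over all 13 was 9.93 on the control array and 10.52 on the other. Krt5 read 7.64 and 8.65, and Krt14 8.03 and 8.65, whereas Krt1, Krt10 and Trp63 stayed under the filter on both arrays. Of 10 fibroblast markers, 6 were higher and 4 lower by any amount, with a median of 0.19. At least 1.5-fold higher were 4 of them, among them Pdgfra (0.75) and Lum (1.29), beside 2.76% of genes past the filter. The lower ones were Col1a1 (-0.06), Col1a2 (-0.03), Thy1 (-0.15) and Vim (-0.06). The log2 summed signal of all 10 fibroblast markers was 14.75 and 14.87. Of 6 smooth muscle and pericyte markers past the filter, 2 were at least 1.5-fold lower, beside 1.84% of all genes past the filter. These 2 were Cnn1 (2.13-fold) and Myh11 (1.60-fold). Among the other smooth muscle and pericyte markers, Acta2 read 12.98 and 12.86, and Cspg4 was higher by 0.20. Over all 10 measured, 3 were higher and 6 lower by any amount, with a median of -0.22. Their log2 summed signal was 13.82 and 13.55. The endothelial markers Pecam1 (3.44 and 3.64), Cdh5 (4.30 and 4.30) and Tek (3.73 and 4.43), of vessel cells, were under the filter on both arrays. The 2 endothelial markers past it were lower, Kdr (5.34 and 4.82) and Egfl7 (5.68 and 5.52), but Kdr passed only through the control array. Over all 10 endothelial markers, 4 were higher and 4 lower by any amount, with a median of 0.0. The log2 summed signal of the 10 endothelial markers was 7.75 and 7.70. The log2 summed signals of the macrophage markers were 7.17 and 7.24, and those of melanocyte and Schwann cell markers 7.87 and 7.72. All 13 interferon-stimulated genes past the filter were higher, with a median of 1.68, but 5 of them passed only through the β-catenin siRNA array. Of the 13, 12 reached 1.5-fold, beside 2.76% of all genes past the filter. Over all 18 measured, 14 reached 1.5-fold and the median was 1.36. In a culture measured as a whole, a change in the share of cells of one type and a change in RNA per cell cannot be told apart.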

How the data were processed

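Per the submitters' processing notes, the values the authors deposited were made with RMA and are on the log2 scale, as judged from their range of 0.485 to 13.5. What software, version, filters and build were used is not given in the sources used here. The table has 28944 probe sets, of which 21789 carry 1 gene symbol in the platform annotation, 1621 several and 5534 none. Identifiers of 21698 were found in a RefSeq table (GRCm38.p6), which supplied current symbols. The probe set with the highest mean stood for a gene. The control value was subtracted from the β-catenin siRNA value, and sizes of 1.5-fold and 2-fold were counted. The robust SD is 1.4826 times the median absolute deviation. With 1 array per group no test was run, and the number of arrays limits the precision.

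The receptor genes and lists were chosen with earlier results of these data known. Genes were named if they were receptor genes, the target, at least 1.5-fold different past the filter in a list of Wnt reception, among the 2 largest differences past the filter in such a list, or among the 3 genes nearest to a receptor gene that differed 1.5-fold; others, cell type markers included, are named by role after their values were seen. Of the listed symbols, 7 were not matched to a single-symbol probe set and are not analysed here. Alternatives were median centring, lowess centring (span 0.3), the mean of probe sets, other level filters and subtraction of the 5th percentile on the linear scale. The counting, the robust SD and the centring were tested on simulated data. Python 3.11.15, pandas 2.3.3 and statsmodels 0.14.6 were used. Protein sequences were not used here.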

Additional observations from a re-analysis of the deposited data

How the results depend on the processing

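Each of the 10 receptor differences kept its direction and moved by less than the robust SD of genes of similar level under median centring, lowess centring, the mean of probe sets (each of the 10 has 1 probe set, so this changes nothing) and subtraction of the 5th percentile. The number at least 1.5-fold higher was 2 and the number lower was 0 under each. Median centring shifts all genes alike, by the median difference of -0.02, and the subtracted percentiles were close on both arrays. Neither could reverse the 10 differences, and lowess centring also moved them little, so the kept directions say little. Fzd1, nearest to the limit, was at -0.578, -0.54 after lowess centring and -0.582 after subtraction. The counts over all genes at 1.5-fold were 281 higher and 188 lower past the level filter, 444 and 469 without it, and 129 and 100 with the filter at the 75th percentile of gene means. Subtraction of the 5th percentile, an alternative for these counts chosen after seeing the data, gave 307 and 214. Of the list medians, that of secreted antagonists (0.84) was 0.38 with the mean of probe sets and -0.18 without the filter. Each secreted antagonist gene has 1 probe set, so averaging changed none of their differences. The 0.38 came from the level filter, which was recomputed under that setting. The median of macrophage markers, 0.63 from 1 gene, was -0.06 over all 10. Without the filter the median of ligands (-0.34) was -0.04, that of keratinocyte markers (0.56) 0.22 and that of interferon-stimulated genes (1.68) 1.36. Another level filter changes which genes enter. Of 72 list medians recomputed, 62 moved by less than the robust SD over genes past the filter. Many of these were under centring or the mean of probe sets, which could change most medians only little, so that count says little. Apart from the antagonist median named above, those that moved by more did so under another level filter. Among them, the planar cell polarity median (0.16) was -0.17 with the filter at the 75th percentile. That of endothelial markers (-0.34) was 0.0 without the filter. No replicate could be left out. No paired analysis was possible because each group is 1 array. What limits these values is that number and, for Fzd4, a control signal under the level filter.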
